A study of Mus musculus with 4 samples.

Results

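The genes described here encode the machinery that copies DNA in S phase, 39 in all. They were picked by name for their place in that machinery, with earlier results of these data known. The rule uses measured levels only to choose among several probe sets of a gene, by the highest mean over the 4 arrays. That choice did not arise for these genes. The deposited table held a probe set for 38 of them, each with a single probe set, among 19572 probe sets of 19505 genes, and Mcm7 was not analysed here. Levels come from Affymetrix whole-transcript arrays of muscle progenitor cells of C57Bl/6 mice, with 2 arrays for mice aged 2 years, called aged, and 2 for mice aged 5 weeks, called young. The cells had been released from muscle with collagenase and sorted for the integrin chains CD29 and ITGA7, and no treatment or transgene is named for either age. The labels do not tie an array to an animal, and the p-values therefore cover the spread among these 4 arrays, which may be technical.

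A cell copies its DNA once per division, in ordered steps. The origin recognition complex, Cdc6 and Cdt1 load the MCM helicase onto origins in G1 phase; Cdc45, the GINS complex and Mcm10 switch it on, and the polymerases, the sliding clamp Pcna and its loaders then make the new strands. Many of these genes are known targets of E2F transcription factors and are switched on at the G1/S boundary, and satellite cells, the stem cells of muscle, are mostly out of the cycle in resting adult muscle.

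Part of the promoters of these genes hold letters of the E2F motif, and they are shown because the share that holds them differs from that of the mitosis genes described further on. Windows from 250 bases before to 50 bases after the annotated start were taken from RefSeq (GRCm38.p6) and matched by symbol for 31 of the 38 genes. The E2F letters searched, on both strands, were TTTCCCGC, TTTGGCGC, TTTCGCGC and TTTGCCGC. They were found for 14 of the 31 replication genes (45.2%) against 704 of all 27025 genes with a window (2.6%). The CHR letters TTTGAA, known from promoters of late cell cycle genes, were found for 5 of the 31 (16.1%) against 20.2% of all genes. In the mitosis list the order was the other way round, with E2F letters for 1 of 19 genes (5.26%) and CHR letters for 14 of 19 (73.7%). The G1/S control list, also described further on, held E2F letters for 6 of 11 genes (54.5%) and CHR letters for 5 of 11 (45.5%). The promoter letters CCAAT lie within none of the E2F or CHR letters. They were found for 61.3% of the replication genes, 84.2% of the mitosis genes, 72.7% of the G1/S control genes and 41.1% of all genes. A match is a description of the letters and not a measured site of binding.

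The stretches below lie before the start of the gene and are written along its own strand, with the searched letters in capitals, either as given above or as their reverse complement. The E2F examples are Mcm6 (chr1:128359782-128359841, minus strand), where 2 matches overlap, Orc1 (chr4:108579401-108579453, plus strand), Cdc6 (chr11:98907987-98908046, plus strand), Pola1 (chrX:93632260-93632319, minus strand), Rfc3 (chr5:151651209-151651244, minus strand) and Uhrf1 (chr17:56304102-56304161, plus strand).
Mcm6: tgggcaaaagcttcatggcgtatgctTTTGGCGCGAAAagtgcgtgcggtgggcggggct
Orc1: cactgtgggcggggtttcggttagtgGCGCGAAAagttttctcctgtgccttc
Cdc6: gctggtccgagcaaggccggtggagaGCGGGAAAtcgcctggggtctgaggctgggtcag
Pola1: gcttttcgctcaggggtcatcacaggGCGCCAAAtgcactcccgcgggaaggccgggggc
Rfc3: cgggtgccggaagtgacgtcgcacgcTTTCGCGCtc
Uhrf1: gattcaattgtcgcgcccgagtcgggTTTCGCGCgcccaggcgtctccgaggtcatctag

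For comparison, the window of Prim1 (chr10:128015180-128015214, plus strand) held none of the E2F letters and is shown with its CCAAT letters in capitals. Prc1 (chr7:80294420-80294475, plus strand) and Kif11 (chr19:37376337-37376381, plus strand), both needed for cell division, are shown with their CHR letters in capitals.
Prim1: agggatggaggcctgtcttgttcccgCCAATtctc
Prc1: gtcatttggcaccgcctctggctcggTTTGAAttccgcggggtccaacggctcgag
Kif11: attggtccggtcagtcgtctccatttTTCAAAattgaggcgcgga

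The replication genes differed in both directions between the ages, and none of the differences passed the test. Differences are given as aged minus young in the log2 units of the table. They ran from -1.47 for Prim1 to 0.55 for Gins3, with 26 of 38 negative and a median of -0.10, against a median of 0.00 over all probe sets tested. No replication gene passed in limma after Benjamini-Hochberg adjustment over all probe sets (lowest adjusted p of 0.654), and neither did any other probe set (0%). Prim1 was the 1 member lower at an unadjusted p under 0.05 (2.63% of members, against 3.99% of all probe sets), and no member was higher at that level (3.36% of all probe sets). Both aged arrays lay below both young arrays for 8 members (21.1%, against 18.4% of all probe sets) and above them for 4 (10.5%, against 18.2%). These shares lie near or under those of the whole table.

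**Figure D1:**
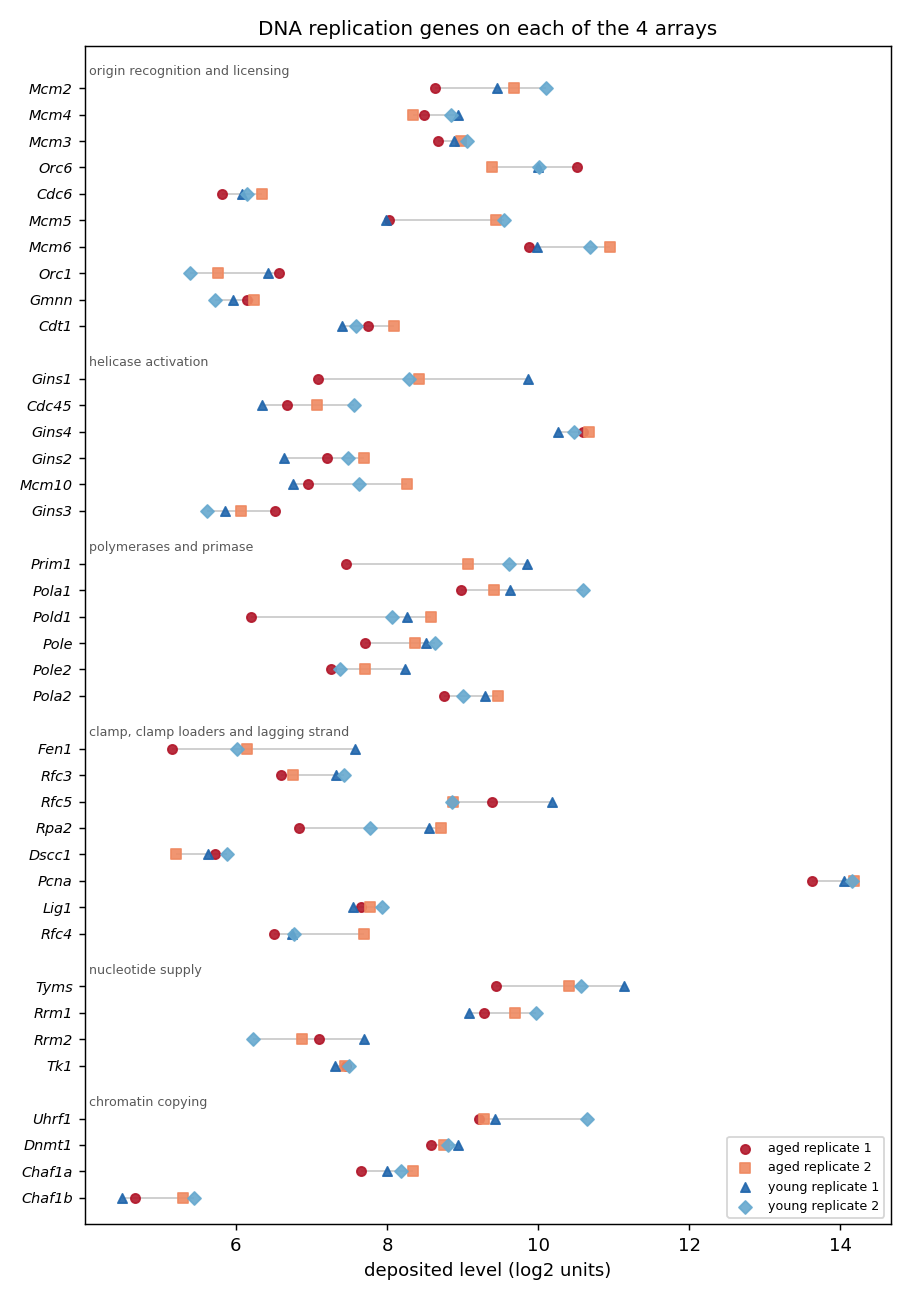
Deposited level (log2 units, x axis) of each replication gene (rows, grouped by role and ordered by difference) on each of the 4 arrays, 1 point per array. Aged replicate 1 is the lowest point for 20 of 38 genes, while aged replicate 2 mixes with the young arrays; positions of different genes reflect different probes and are not to be compared.

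The aged arrays differed from each other more than the ages did. The median level of the 38 genes was 7.56 in aged replicate 1 and 8.36 in aged replicate 2, and 8.25 and 8.13 in young replicates 1 and 2. Aged replicate 1 was thus the low array, while the other 3 arrays lay close together: their mean levels were 8.30 in aged replicate 2 and 8.27 and 8.31 in the young arrays, against 7.81 in aged replicate 1. Aged replicate 1 was below aged replicate 2 for 30 of the 38 genes, and it was below both young arrays for 21 of them. Aged replicate 2 was below both young arrays for 10 genes and above both for 14. Gene by gene, the median difference of aged replicate 1 was -0.25 from young replicate 1 and -0.46 from young replicate 2, and that of aged replicate 2 was 0.15 and 0.02. Without aged replicate 1 the median difference of the list was 0.04, with 17 of 38 negative, and without aged replicate 2 it was -0.31, with 29 negative. For 31 genes the arrays of at least 1 age differed from each other by more than the group means did.

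Other measures also set single arrays apart, and not always aged replicate 1. Over all probe sets, aged replicate 1 correlated most closely with aged replicate 2 (r of 0.978). Markers of mature muscle fibres (5 of 5 listed genes measured, Acta1, Ckm, Myh4, Tnnt3 and Myl1) had a median level of 14.63 in aged replicate 1. It was 11.74 in aged replicate 2 and 12.59 and 12.39 in the young arrays. The exon control probe sets stood least clearly above the intron control probe sets on aged replicate 1, with an area under the curve of 0.792. The values were 0.819 in aged replicate 2 and 0.849 and 0.823 in young replicates 1 and 2, so young replicate 1 lay at the other end. Both aged arrays lay below both young arrays in this measure. A fit with it as a covariate can therefore take up part of an age difference, and the 2 cannot be told apart. Markers of granulocyte precursors, which divide in bone marrow (Elane, Mpo, Ctsg, Prtn3 and Ms4a3), were read at medians of 8.75 and 11.53 on the aged arrays, against 6.10 and 6.48 on the young arrays, highest in aged replicate 2. Pan-leukocyte markers (7 of 7 measured) had medians of 6.88 and 10.04 on the aged arrays, against 7.22 and 6.34 on the young arrays. Gene by gene, 6 of the 7 differences were positive, with a median of 1.99. Both aged arrays lay above both young arrays for 5 of the 7, against 18.2% of all probe sets. Erythroid precursor markers (7 of 8 measured) had medians of 6.45 and 5.64 on the aged arrays, against 6.01 and 6.28 on the young arrays, each under the intron control median of its array. Endothelial markers (5 of 5 measured) set young replicate 2 apart, with a median of 10.69 against 6.81 in young replicate 1 and 7.50 and 6.40 in the aged arrays. Their part in the replication values was not tested, and in such bulk samples fewer cells of a type and less RNA per cell cannot be told apart.

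**Figure D2:**
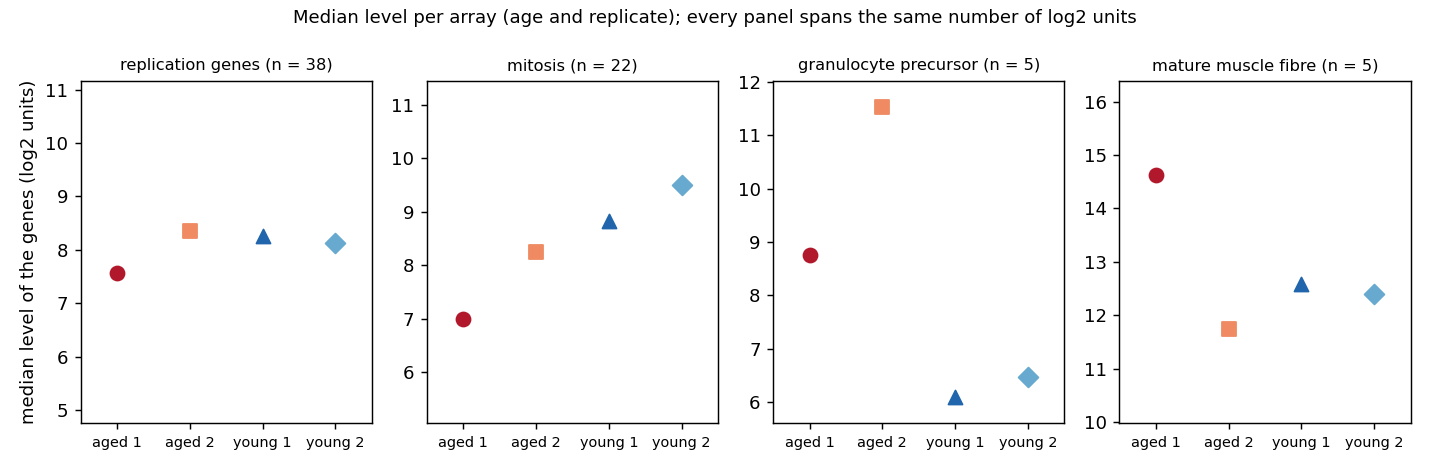
Median level (log2 units, y axis) of 4 gene lists on each array (x axis), 1 point per array, with the number of genes in each panel's title. The replication median is lowest in aged replicate 1 (7.56), the mitosis median is lower in both aged arrays than in both young arrays, granulocyte precursor markers peak in aged replicate 2 (11.53) and muscle fibre markers in aged replicate 1 (14.63).

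Satellite cell markers (10 of 10 measured) were above the intron median on all 4 arrays, with 7 of 10 differences negative and a median of -0.26. Of these 10 markers, 2 were lower in aged arrays at an unadjusted p under 0.05 in limma, against 3.99% of all probe sets. They were Megf10 (-1.36 ± 0.45, SE) and Myod1 (-1.16 ± 0.43, SE), a factor that drives myogenic commitment. Itga7 averaged 14.81 in aged and 14.96 in young arrays, Itgb1, which encodes CD29, differed by -0.64 ± 0.37 (SE) with both aged arrays below both young ones, and the satellite cell factor Pax7 differed by 0.12 ± 0.51 (SE). Fibroblast genes (6 of 7 measured) and pericyte and smooth muscle genes (5 of 5) were also above the intron median on all 4 arrays, with medians of 13.99 to 15.62 and 13.31 to 14.29. Both aged arrays lay below both young arrays for 4 of the 6 fibroblast genes, against 18.4% of all probe sets. The fibroblast differences ran from -3.22 to 0.64, with 5 of 6 negative and a median of -0.37. Of the 6, the 2 collagen genes Col1a1 (-3.22 ± 0.45, SE) and Col1a2 (-2.65 ± 0.46, SE) were lower at an unadjusted p under 0.05 in limma, against 3.99% of all probe sets. The part of these marker differences in the replication values was not tested.

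Genes that license origins showed small differences. The arrays of the ages overlapped for 7 of 10 members, against 12411 of all 19572 probe sets. Mcm2, a subunit of the MCM helicase, was read at 8.64 and 9.68 on the aged arrays and at 9.45 and 10.11 on the young arrays. Aged replicate 1 was the low array, and the groups overlapped. The difference was -0.62 ± 0.46 (SE; 95% interval -1.75 to 0.51, limma adjusted p of 0.841), and leaving out aged replicate 1 gave -0.10, leaving out aged replicate 2 gave -1.14. Mcm4, another helicase subunit, was read at 8.49 and 8.35 on the aged arrays and at 8.94 and 8.85 on the young arrays, a small gap without overlap (-0.47 ± 0.29, SE). The 3 other helicase subunits measured, Mcm3, Mcm5 and Mcm6, differed by -0.14, -0.04 and 0.07. For Mcm5 the arrays followed the replicate number and not the age, at 8.03 and 9.44 on the aged arrays and at 7.99 and 9.55 on the young arrays.

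Cdt1, which brings the helicase to the origin, had the highest difference of the licensing group. It was read at 7.75 and 8.09 on the aged arrays and at 7.41 and 7.59 on the young arrays, so both aged arrays were above both young ones, by 0.42 ± 0.30 (SE; limma adjusted p of 0.836). Gmnn, encoding geminin, the inhibitor that keeps Cdt1 from licensing again, was read at 6.14 and 6.24 on the aged arrays and at 5.96 and 5.72 on the young arrays (0.35 ± 0.29, SE). All 4 of these Gmnn readings lay under the intron control median, a background mark that stood at 6.76 and 6.68 on the aged arrays, against 6.25 and 6.62 on the young arrays. The loader Cdc6 differed by -0.04 and was under that mark on all arrays too. Orc1 and Orc6, subunits of the origin recognition complex, differed by 0.26 and -0.05. The median of the licensing group was -0.04, and leaving out aged replicate 1 or aged replicate 2 gave 0.12 or -0.30.

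Genes that switch the helicase on leaned the other way, with 4 of 6 positive and a median of 0.33. Cdc45 (-0.09) and Gins1 were the negative ones. Gins1, a subunit of the GINS complex, had the second most negative difference of the 38 genes. It was read at 7.09 and 8.42 on the aged arrays and at 9.86 and 8.29 on the young arrays. Young replicate 1 was high and aged replicate 1 low, while the replicates numbered 2 were close together. The difference was -1.32 ± 0.67 (SE; 95% interval -2.96 to 0.32, limma adjusted p of 0.739) and was -0.54 without young replicate 1. Gins3, another subunit of the same complex, had the highest difference of all members at 0.55 ± 0.32 (SE; limma adjusted p of 0.777). It was read at 6.52 and 6.07 on the aged arrays and at 5.86 and 5.62 on the young arrays; the ages did not overlap, and every reading lay under the intron median of its array.

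The other GINS subunits were read higher in aged cells by small amounts. Gins4 was read at 10.59 and 10.68 on the aged arrays and at 10.26 and 10.48 on the young arrays (0.26 ± 0.29, SE), and Gins2 differed by 0.39 with overlapping arrays. The 4 subunits of this complex thus gave 1 negative and 3 positive differences, none of which passed. Mcm10, which binds the helicase as it is activated, differed by 0.42, and Cdc45 joins the helicase at that step. The group's median was 0.47 without young replicate 2, -0.03 without young replicate 1 and -0.05 without aged replicate 2.

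All 6 genes of the DNA polymerases and primase had negative differences, with a median of -0.65. However, 5 were negative after a second quantile normalization (Pola2 at 0.05) and 4 without young replicate 1. With the exon to intron measure described above as a covariate, which is confounded with age, 3 were negative. Prim1, the catalytic subunit of the primase that starts each new strand, was read at 7.46 and 9.07 on the aged arrays and at 9.85 and 9.61 on the young arrays. Both aged arrays were below both young arrays, and aged replicate 1 was far below the rest. The difference was -1.47 ± 0.55 (SE, 95% interval -2.83 to -0.10), at an unadjusted p of 0.0396 and an adjusted p of 0.654 in limma. It was -2.27 without aged replicate 2. Leaving out aged replicate 1 gave -0.66, and Prim1 was then no longer at an unadjusted p under 0.05; leaving out young replicate 1 (-1.34) or young replicate 2 (-1.59) had the same effect on the p with a difference of about the same size, and the exon to intron covariate gave -0.36.

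Pola1, the catalytic subunit of polymerase alpha that works with the primase, was read at 8.98 and 9.42 on the aged arrays and at 9.63 and 10.59 on the young arrays. The groups did not overlap, and young replicate 2 was the high array (-0.91 ± 0.42, SE, limma adjusted p of 0.710), without which the difference was -0.43. Without young replicate 1 the Pola1 difference was -1.39, and with the exon to intron covariate -1.19. Its accessory subunit Pola2 was read at 8.76 and 9.47 on the aged arrays and at 9.30 and 9.01 on the young arrays and differed by -0.04 ± 0.36 (SE), the smallest difference of the group. Pole, the catalytic subunit of the leading strand polymerase epsilon, was read at 7.71 and 8.37 on the aged arrays and at 8.52 and 8.63 on the young arrays (-0.53 ± 0.34, SE), and without aged replicate 1 the difference was -0.20. Its partner Pole2 differed by -0.32. Pold1, the catalytic subunit of the lagging strand polymerase delta, was read at 6.20 and 8.58 on the aged arrays and at 8.26 and 8.07 on the young arrays. Its difference of -0.77 ± 0.75 (SE) thus came from aged replicate 1 alone and was 0.41 without that array. The Pold1 reading on aged replicate 1 lay under the intron median of that array. Without aged replicate 1 the median of the 6 genes was -0.15, with 4 negative, and without aged replicate 2 it was -1.0.

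**Figure D3:**
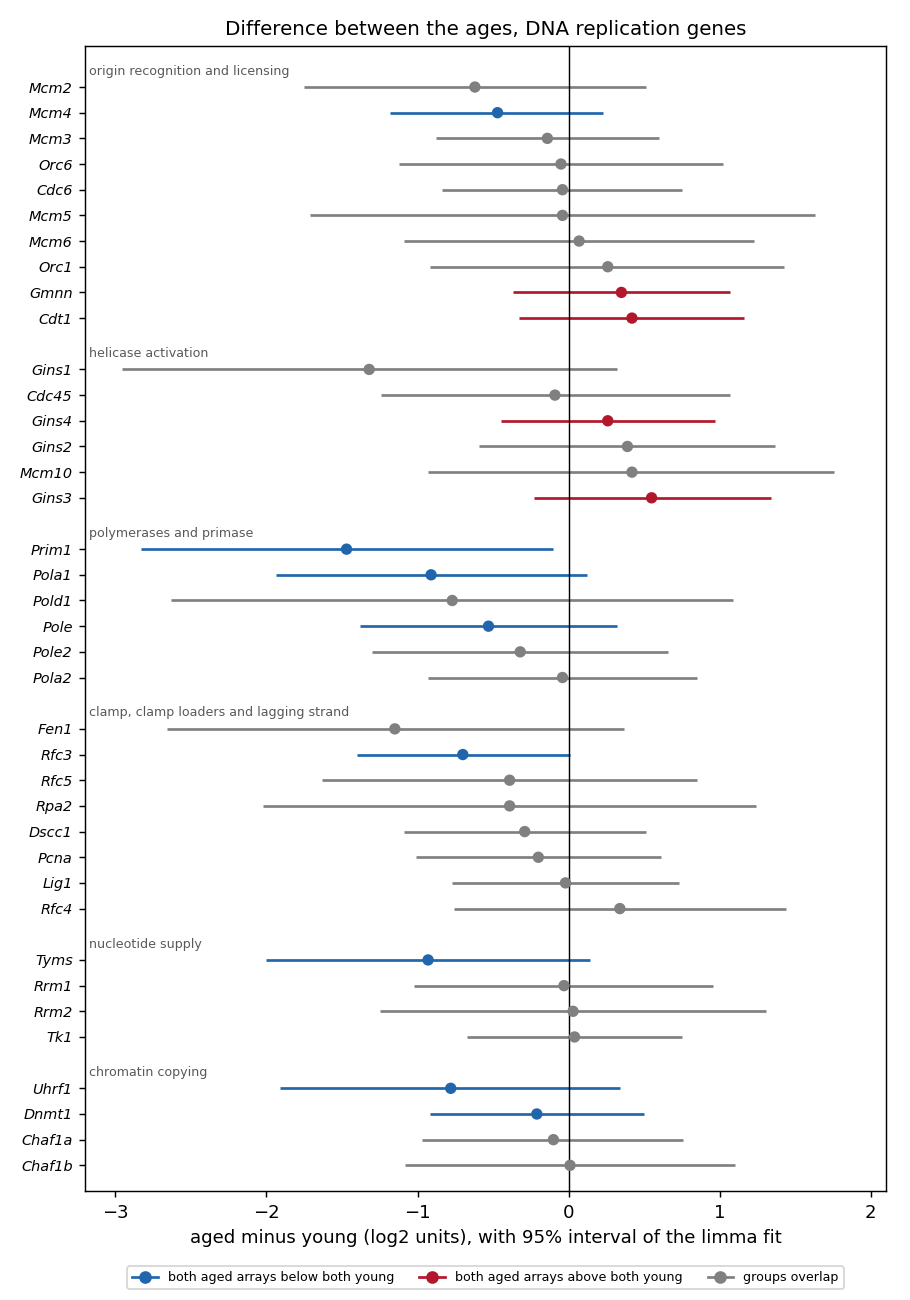
Difference between the ages (aged minus young, log2 units, x axis) for each replication gene, with the 95% interval of the limma fit as a bar and colour for whether the arrays of the ages overlap. The interval of Prim1 (-2.83 to -0.10) is the only one that leaves out 0, and the 6 polymerase and primase genes lie below 0 in this fit (3 of 6 with the exon to intron covariate, 4 without aged replicate 1 or without young replicate 1, 5 after a second quantile normalization).

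Among the genes of the clamp, its loaders and the lagging strand, 7 of 8 differences were negative, with a median of -0.34 (3 of 8 and 0.06 with the exon to intron covariate). Pcna, the sliding clamp that holds polymerases on DNA, was read at 13.62 and 14.18 on the aged arrays and at 14.05 and 14.16 on the young arrays. Only aged replicate 1 lay apart, and the difference was -0.20 ± 0.33 (SE; 95% interval -1.01 to 0.61). Fen1, the nuclease that trims the flaps of lagging strand fragments, had the lowest difference of the group. It was read at 5.15 and 6.14 on the aged arrays and at 7.58 and 6.01 on the young arrays, so that young replicate 1 stood alone above the others. The difference of -1.15 ± 0.61 (SE; limma adjusted p of 0.760) was -0.36 without young replicate 1, and all readings but that of young replicate 1 lay under the intron median of their array.

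The clamp loader subunits gave differences of both signs. Rfc3 was read at 6.59 and 6.76 on the aged arrays and at 7.32 and 7.43 on the young arrays, with little spread within an age. It differed by -0.70 ± 0.29 (SE, 95% interval -1.40 to 0.01, limma adjusted p of 0.686). Its aged readings were near background, against intron medians of 6.76 and 6.68 on aged replicates 1 and 2. Rfc4 was read at 6.51 and 7.69 on the aged arrays and at 6.74 and 6.77 on the young arrays. Its difference of 0.34 ± 0.45 (SE) came from aged replicate 2, and its reading on aged replicate 1 lay under the intron median of that array. Rfc5 differed by -0.39, and Dscc1, a subunit of the alternative loader that acts in sister chromatid cohesion, by -0.29. Lig1, the ligase that seals the fragments, differed by -0.02, with a 95% interval of -0.77 to 0.73. Rpa2, a subunit of the protein that coats single-stranded DNA, differed by -0.39 ± 0.66 (SE) and by 0.55 without aged replicate 1.

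Of the genes for nucleotide supply, Tyms stood apart from 3 genes near 0. Tyms, encoding thymidylate synthase, was read at 9.44 and 10.41 on the aged arrays and at 11.14 and 10.57 on the young arrays. Both aged arrays were below both young arrays, although aged replicate 2 and young replicate 2 were close. The difference was -0.93 ± 0.43 (SE, 95% interval -2.0 to 0.14, limma adjusted p of 0.718). It was -0.44 without aged replicate 1, -1.41 without aged replicate 2 and -0.02 with the exon to intron covariate. Tk1, the thymidine kinase of the salvage route, was read at 7.46 and 7.44 on the aged arrays and at 7.31 and 7.50 on the young arrays, a difference of 0.04 ± 0.29 (SE). The ribonucleotide reductase subunits Rrm1 and Rrm2 differed by -0.03 and 0.03.

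Genes that copy chromatin and DNA methylation behind the fork had a median of -0.16. Uhrf1, which recognises newly copied DNA methylated on a single strand and recruits Dnmt1, was read at 9.22 and 9.29 on the aged arrays and at 9.43 and 10.65 on the young arrays. The groups did not overlap, but the gap came mainly from young replicate 2 (-0.78 ± 0.46, SE, limma adjusted p of 0.780). Without that array the difference was -0.17. It was -1.40 without young replicate 1 and -1.44 with the exon to intron covariate. Dnmt1, the methyltransferase that it recruits, was read at 8.58 and 8.75 on the aged arrays and at 8.94 and 8.81 on the young arrays (-0.21 ± 0.29, SE). The histone chaperone subunits Chaf1a and Chaf1b differed by -0.10 and 0.01, and Chaf1b, at 4.66 and 5.30 on the aged arrays and at 4.49 and 5.45 on the young arrays, lay under the intron median on all arrays.

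The precision of the 4 arrays was limited. The half-width of the 95% interval ran from 0.70 to 1.86, with a median of 1.01. For 8 genes, Cdc6, Mcm3, Gins4, Pola2, Lig1, Tk1, Chaf1a and Dnmt1, the whole interval lay within 1 log2 unit of 0. For 23 of the 38 genes the interval still held a difference of -1. Readings were above the intron median on all 4 arrays for 26 genes and under it on all 4 for 5 genes. These 5 were Cdc6, Gmnn, Gins3, Dscc1 and Chaf1b, whose differences rest on signal near background. A reading above that median does not by itself show that a gene was detected. The 95th percentile of the intron controls was 11.77 and 11.78 on the aged arrays, against 11.02 and 11.60 on the young arrays. Of the 38 genes, only Pcna was above it on all 4 arrays.

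Further genes of the same pathway were also spread around 0. Of 51 such genes listed, 48 were measured, with 29 negative differences and a median of -0.11. At an unadjusted p under 0.05, 1 was lower (2.08%, against 3.99% of all probe sets) and 2 were higher (4.17%, against 3.36%), shares near those of the whole table, and none passed after adjustment. Clspn, encoding claspin, a checkpoint mediator at the fork, was read at 5.51 and 5.07 on the aged arrays and at 6.40 and 6.52 on the young arrays. It differed by -1.17 ± 0.31 (SE, limma adjusted p of 0.518). Its readings on both aged arrays and on young replicate 2 lay under the intron median of their array, so the difference rests on signal near background. Samhd1, which breaks down the nucleotides that DNA is made of, was read at 9.06 and 9.30 on the aged arrays and at 7.05 and 8.02 on the young arrays, and so differed by 1.64 ± 0.41 (SE; limma adjusted p of 0.496). Pold4, a small subunit of polymerase delta, differed by 0.95 ± 0.32 (SE; limma adjusted p of 0.605). Samhd1 is also known from myeloid cells, and the granulocyte precursor markers were higher in both aged arrays; their part in its difference was not tested.

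Genes of the neighbouring cell cycle steps had more negative differences in the same arrays, and the gap between the lists was not tested. In the G1/S control list 14 of 15 genes were measured, with a median of -0.72. Unadjusted p-values under 0.05 were found for 4 of them, all lower (28.6%, against 3.99% of all probe sets). The count ran from 2 without aged replicate 1 (E2f1 and Skp2) to 7 without young replicate 1, and the median from -0.37 without young replicate 2 to -1.13 without young replicate 1. With the exon to intron covariate 3 were lower at that level, of which only Skp2 was among the 4. These 4 were E2f1 (-1.49 ± 0.33, SE), the ubiquitin ligase subunit Skp2 (-1.50 ± 0.34), cyclin A2 gene Ccna2 (-1.20 ± 0.36) and its kinase partner Cdk2 (-1.10 ± 0.44). E2f1, a factor that binds the E2F letters, was read at 4.57 and 4.40 on the aged arrays and at 6.25 and 5.70 on the young arrays, with all 4 readings under the intron median of their array. In the mitosis list 22 of 23 genes were measured, all with negative differences and a median of -1.61. Of these, 16 (72.7%) were lower at an unadjusted p under 0.05, against 11 without aged replicate 1 and 5 with the exon to intron covariate. The mitosis median was -1.20 without aged replicate 1 and stayed between that value and -2.13 as each array was left out, while the replication median lay between -0.31 and 0.04. Both lists shared the low reading of aged replicate 1, with mitosis medians of 6.99 and 8.25 on the aged arrays, against 8.83 and 9.51 on the young arrays. Within the replication list, genes with and without the E2F letters had the same median difference of -0.09 (14 and 17 genes), and the 5 genes with CHR letters had a median of -0.21 against -0.04 for the 26 without.

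**Figure D4:**
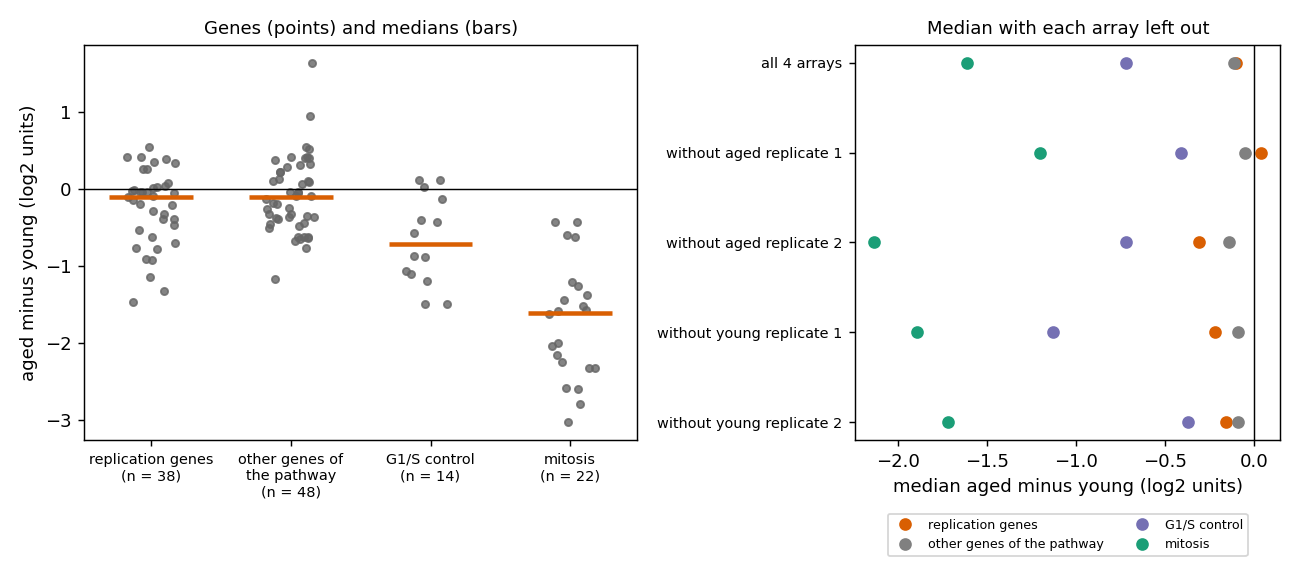
Left, difference between the ages (aged minus young, log2 units) for each gene of 4 lists, with a bar at the list's median; right, the same medians with all 4 arrays and with each array left out. The replication median (-0.10) stays near 0 and changes sign without aged replicate 1 (0.04), while the mitosis median (-1.61) lies below -1 in every case shown.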

How the data were processed

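The deposited table holds log2 levels of 28846 entries on 4 arrays, made by the authors with RMA and the Transcriptome Analysis Console, per the submitters' processing notes; no version or genome build is named there. Gene symbols came from the platform annotation. The ages were compared by the moderated two-sided test of limma 3.58.1 (R 4.3.3; lmFit and eBayes with age group as the one term) over all 19572 probe sets with a symbol, with Benjamini-Hochberg adjustment and a threshold of 0.05, without a filter on low levels. Intervals are 95% intervals of that fit. The fitting code was tested on simulated data. Log2 differences are in the units of the table and were not turned into folds. The members, roles and lists were chosen with earlier results of these data known. Array levels were to be given for members at an unadjusted p under 0.05, for those without overlap that differ by at least 1 log2 unit, and for the lowest and highest difference of each role; those of Mcm4, Mcm5, Gmnn, Gins4, Pola1, Pole, Pold1, Pcna, Rfc3 and Dnmt1 were added after their values were seen. From another list, genes at an unadjusted p under 0.05 in limma could be named, at most the 6 with the smallest p. Itga7, Itgb1, Pax7 and the mature muscle fibre markers were named outside this rule. Of 180 listed genes 172 were found. The number of arrays limits the precision.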

Additional observations from a re-analysis of the deposited data

How the results depend on the processing

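The sign of the median difference of the replication genes (-0.10) turned with each array's exon to intron measure as a covariate (0.06) and without aged replicate 1 (0.04); as each array was left out it ran from -0.31 to 0.04. No replication gene passed after adjustment under any alternative. The count of members lower at an unadjusted p under 0.05 (1, Prim1) was 2 after a second quantile normalization, 2 after median centring, 2 with the replicate block and 0 with the covariate, and 0 to 5 as each array was left out (0 without aged replicate 1, 5 without aged replicate 2, 2 without either young array); the count of higher members was 0 throughout. The count of probe sets that passed over the whole table (0) was 2 with the replicate block and 0 to 1 as each array was left out. Arrays share only a replicate number: deviations of the replicates numbered 1 from their group means had a correlation of -0.05 across probe sets. The causes were not tested. The share of all probe sets lower at an unadjusted p under 0.05 in limma was 3.99% in the main fit. It was 3.78% after a second quantile normalization, 4.31% after median centring, 3.97% with the block and 2.4% with the covariate. The counts with an array left out rest on 1 array of an age and were not weighed against such a share. The covariate, the block and each array left out leave 1 residual degree of freedom. The covariate was also lower in both aged arrays than in both young arrays, so its part and that of age cannot be told apart.

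Signs turned for several genes, Gins1 (-1.32) and Fen1 (-1.15) among them. With the covariate the differences were Cdc6 0.23, Gins1 0.38, Pola2 0.55, Pold1 0.75, Pole2 0.44, Pcna 0.06, Rfc5 0.06, Fen1 0.35, Rpa2 1.17, Tk1 -0.08, Chaf1a 0.20 and Chaf1b -0.16. After a second quantile normalization they were Orc6 0.05, Mcm5 0.01, Pola2 0.05, Lig1 0.00, Rrm1 0.05 and Chaf1b -0.03, and after median centring Rrm2 0.00 and Chaf1b -0.02. As each array was left out, 22 genes changed sign at least once, over these ranges: Orc1 -0.26 to 0.77, Orc6 -0.62 to 0.51, Cdc6 -0.31 to 0.22, Mcm3 -0.29 to 0.01, Mcm5 -0.82 to 0.74, Mcm6 -0.47 to 0.60, Mcm10 -0.24 to 1.08, Cdc45 -0.69 to 0.52, Gins2 -0.03 to 0.81, Pola2 -0.39 to 0.32, Pold1 -1.96 to 0.41, Pole2 -0.75 to 0.11, Pcna -0.48 to 0.08, Rfc4 -0.25 to 0.93, Rfc5 -1.05 to 0.27, Lig1 -0.21 to 0.17, Rpa2 -1.34 to 0.55, Rrm1 -0.48 to 0.41, Rrm2 -0.71 to 0.77, Tk1 -0.06 to 0.13, Chaf1a -0.45 to 0.24 and Chaf1b -0.47 to 0.50. The filter at the intron median (mean level above 6.58) kept 31 members. This filter, both other variance priors, the block and the averaging of probe sets leave a member's difference as it is by construction and say nothing about the stability of its sign.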
